A study of Homo sapiens with 16 samples.

Results

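The genes described here are 40 genes of the unfolded protein response and the integrated stress response, followed across 16 RNA libraries of HCC70, an established human breast cancer line of basal-like, triple-negative type. They were chosen by name, with earlier results of these data known, and all 40 had a row among the 11282 genes of the deposited table. They comprised 14 chaperones and folding factors of the endoplasmic reticulum (ER), 4 genes of ER-associated degradation, 3 ER stress sensors, 6 transcription factors, 3 feedback regulators and 10 targets of the factor ATF4. The cells had been infected with short hairpin RNA (shRNA) constructs, with 2 libraries per target or control name. Each such pair is called a construct here. Each library of KLF5, RBPJ, NFIB and FOXA1 carried its own hairpin against that transcription factor. The references were 2 libraries of the empty backbone plko and 6 libraries, called hairpin controls here, of shRFP, shLACZ and shLUC, whose hairpins are named for genes that human cells do not have. The labels name no drug, dose or time point, and every library, controls included, came from infected cells of this single line. Whether control libraries of the same construct are separate cultures is not stated in the labels, so p-values measure the spread between these libraries, which may be technical in part. For the 4 targets that spread also includes the differences between 2 hairpins. The shRNA labels give 2 distinct entries for each control name as well, so the control pairs may not be repeats of a single vector.

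Secretory and membrane proteins fold in the ER with the help of chaperones, and unfolded protein there is sensed by the kinases IRE1 (gene ERN1) and PERK (gene EIF2AK3) and by the membrane-bound factor ATF6. The ATF6 and IRE1 branches raise chaperones and degradation genes. PERK phosphorylates the translation factor eIF2, as do other kinases that sense amino acid shortage, double-stranded RNA or haem shortage, and this lowers protein synthesis while favouring translation of ATF4. ATF4 then raises genes of amino acid synthesis and transport, so the 2 arms can be read separately at the RNA level. Chaperone promoters often hold an ER stress element, and ATF4 targets a site shared by C/EBP and ATF factors.

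Promoter sequence from RefSeq (build GRCh38.p14) was found for 36 of the 40 genes, all but PDIA3, NUPR1, PSPH and SHMT2, and 5 stretches upstream of the start site are printed because they hold an element searched for each arm. Each runs 5′ to 3′ along the gene's own strand, with the matches in capitals. The ER stress element, searched as CCAAT, then 9 bases of any kind, then CCACG, on either strand, was found upstream of HSPA5 (chr9:125241351-125241449, minus strand), HSP90B1 (chr12:103930176-103930379, plus strand) and CALR (chr19:12938359-12938442, plus strand). The core of the C/EBP-ATF site, searched as TGATGNAA on either strand, was found upstream of ASNS (chr7:97872429-97872516, minus strand) and CHAC1 (chr15:40953222-40953309, plus strand).
HSPA5: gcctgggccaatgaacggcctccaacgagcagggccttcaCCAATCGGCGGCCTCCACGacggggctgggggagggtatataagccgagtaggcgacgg
HSP90B1: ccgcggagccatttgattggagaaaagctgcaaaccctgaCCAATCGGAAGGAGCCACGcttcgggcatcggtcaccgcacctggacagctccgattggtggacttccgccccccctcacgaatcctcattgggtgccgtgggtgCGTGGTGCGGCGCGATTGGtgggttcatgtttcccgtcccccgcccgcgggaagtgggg
CALR: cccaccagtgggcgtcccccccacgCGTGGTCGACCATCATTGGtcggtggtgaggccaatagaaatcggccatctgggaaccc
ASNS: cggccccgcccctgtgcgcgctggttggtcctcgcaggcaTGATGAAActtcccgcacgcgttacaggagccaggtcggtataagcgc
CHAC1: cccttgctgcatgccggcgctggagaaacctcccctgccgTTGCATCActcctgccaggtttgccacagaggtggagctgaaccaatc
In the window of 250 bases before to 50 bases after the start, the ER stress element occurred in 6 of 13 chaperone genes (46.2%), namely HSPA5, HSP90B1, CALR, CANX, PDIA6 and CRELD2, and in 0.0916% of 27305 genes with a promoter. It occurred in none of 8 ATF4 targets searched. The C/EBP-ATF core occurred in 2 of those 8 (25.0%) and in none of the 13 chaperone genes, against 4.46% of all genes, and also in ATF3, CEBPG, HERPUD1 and PPP1R15B. The shorter element TGACGTGG occurred in HYOU1 alone among the 36, against 0.927% of all genes. A match describes these letters and is not evidence of binding.

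The shallowest library, plko 1, held 375713 reads and the deepest, RBPJ 1, held 3090666, and the median library had 1164801.5. The targeted gene stood at 63.4% and 37.8% of the hairpin control mean in KLF5 1 and 2, at 89.5% and 17.7% in RBPJ 1 and 2, at 71.1% and 12.6% in NFIB 1 and 2, and at 24.4% and 58.6% in FOXA1 1 and 2. RBPJ 1, at a normalised value of 43.3, lay within the hairpin control range of 43.1 to 54.9 for its own target. The 9 basal epithelial markers summed to between 2879 and 9183 per library, with 4246 to 6875 in the hairpin controls. The lowest sum was that of plko 1 and the highest that of NFIB 1. The 4 fibroblast and 2 leukocyte markers analysed summed to at most 43.2 and 51.2, with COL1A2, DCN, PDGFRA and PTPRC at 0 in some libraries. Of the luminal hormone-receptor markers, ESR1 reached 10.7 and PGR 6.15 at most. GATA3 made up most of that list, which summed to between 113 and 294 per library, with 114 to 182 in the hairpin controls. None of the 4 endothelial markers looked up matched a row of the deposited table.

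Values are the deposited normalised values per library. A log2 difference is on the scale of log2(value + 1), and a gene is said to have risen or fallen where the limma adjusted p over all 10826 genes tested was below 0.05. All 40 genes were among those tested. Bulk RNA cannot tell fewer cells that express a gene from less RNA per cell.

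**Figure D1:**
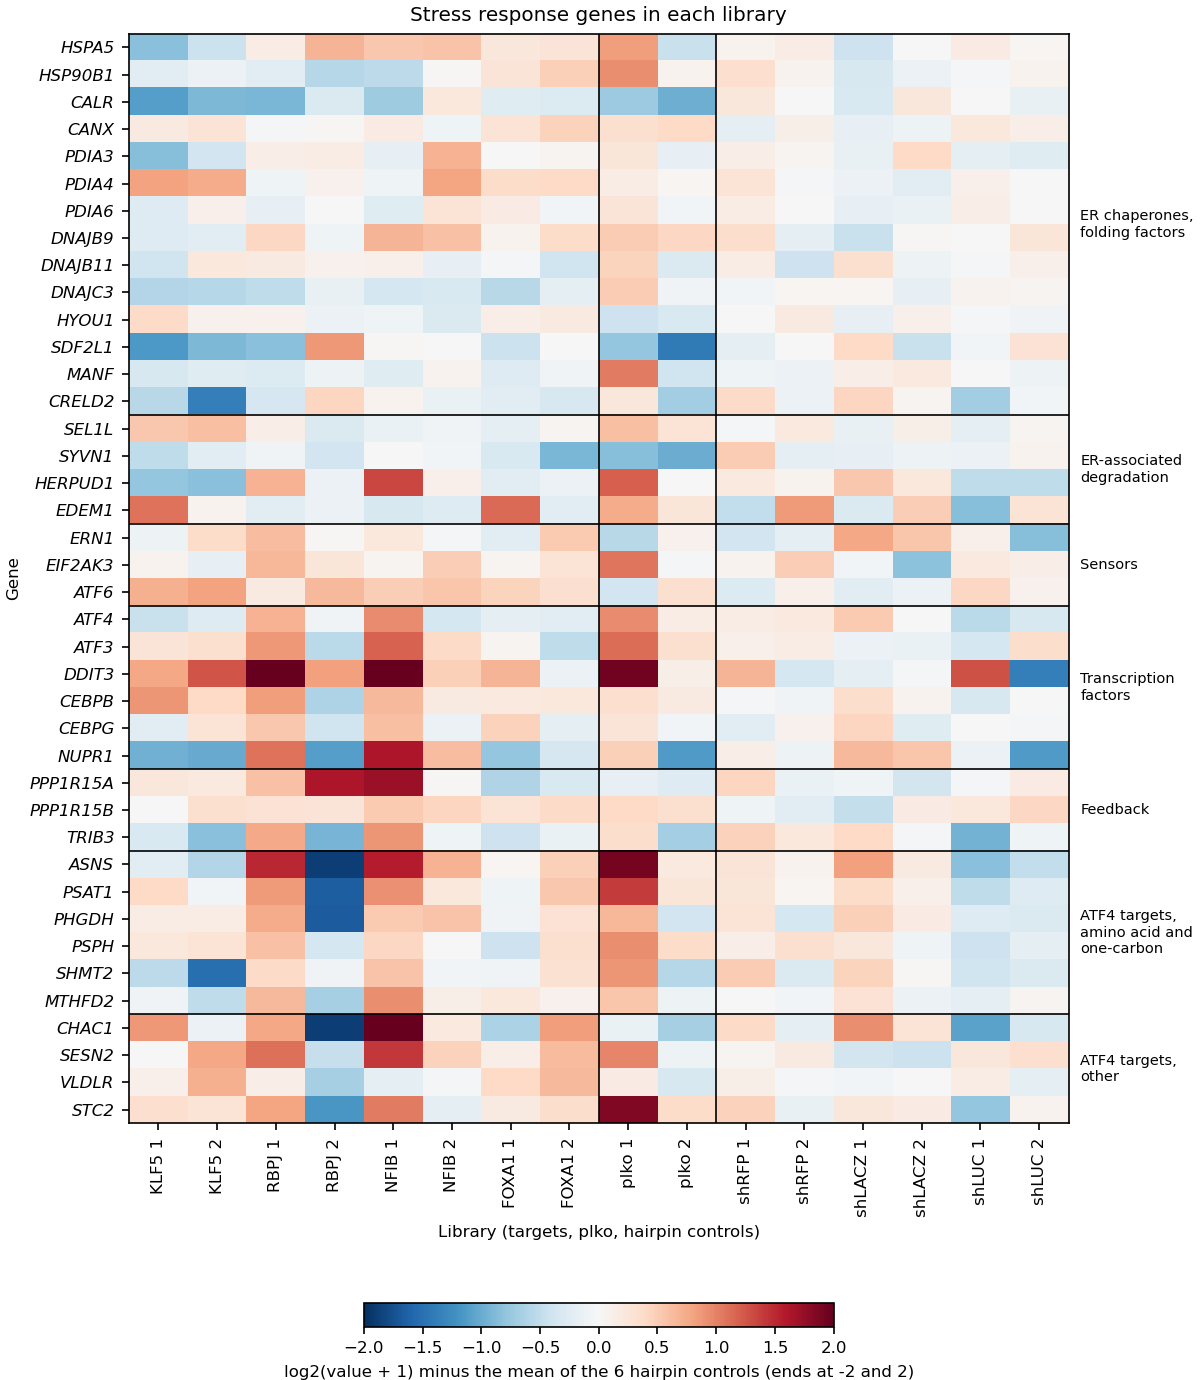
Each of the 40 genes (rows) in each of the 16 libraries (columns), coloured by log2(value + 1) minus the mean of the 6 hairpin controls, with the scale ended at -2 and 2. The ATF4 targets at the bottom are mostly red in RBPJ 1, NFIB 1 and plko 1 and blue in RBPJ 2, and in the ER chaperones at the top no column is of a single colour.

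With the KLF5 hairpins, CALR, SDF2L1 and CRELD2 fell and PDIA4 and ATF6 rose against the hairpin controls. These were 5 of 40 genes, 2 higher and 3 lower, against 11.0% of all genes tested (4.42% higher and 6.61% lower), so the share called was near the background. CALR (ENSG00000179218) encodes calreticulin, the lectin chaperone that binds glycoproteins in the ER lumen. It was at 122 and 140.0 in KLF5 1 and 2, against a lowest, median and highest of 211, 261 and 307 in the hairpin controls. Both KLF5 libraries lay below all 6 controls, and the log2 difference was -0.996 (SE 0.22, limma adjusted p = 0.00404). SDF2L1 (ENSG00000128228), a component of ER chaperone complexes, was at 81.8 and 96.8 in KLF5 1 and 2, against 134, 178 and 241. The groups did not overlap here either, with a log2 difference of -1.02 (SE 0.30, adjusted p = 0.0263 by limma). CRELD2 (ENSG00000184164), an ER stress-inducible protein with disulfide isomerase activity, was at 69.0 and 38.5 in KLF5 1 and 2 and at 62.4, 101 and 137 in the hairpin controls. Here KLF5 1 lay inside the control range and KLF5 2 below it, and the log2 difference was -0.96 (SE 0.29, limma adjusted p = 0.0309).

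PDIA4 (ENSG00000155660), a protein disulfide isomerase, was at 253 and 242 in KLF5 1 and 2, against 123, 143 and 173 in the hairpin controls. Both libraries lay above every control, with a log2 difference of 0.78 (SE 0.20, limma adjusted p = 0.0122). ATF6 (ENSG00000118217), the sensor that is cleaved to a transcription factor, was at 162 and 172 in KLF5 1 and 2 and at 80.7, 97.4 and 132 in the controls. The groups again did not overlap, and the log2 difference was 0.76 (SE 0.21, limma adjusted p = 0.0224). HSPA5 (BiP), the main chaperone of the ER lumen and a standard readout of ER stress, was at 178 and 236 in KLF5 1 and 2, against 238, 331 and 357 in the hairpin controls. Its log2 difference of -0.63 did not pass (SE 0.24, limma adjusted p = 0.095), although both libraries lay below the lowest control, KLF5 2 only just. That control, shLACZ 1, itself stood below the other 5, which were at 315 to 357. SHMT2, the mitochondrial serine hydroxymethyltransferase, was at 33.4 and 16.3 in KLF5 1 and 2 and at 36.6, 44.4 and 69.7 in the controls, and missed the threshold at an adjusted p of 0.0513 in limma (log2 -1.02). It passed in limma with a filter of at least 10 in 4 libraries (adjusted p = 0.0479) and with TMM scaling (0.0412). The same held in limma with a replicate block (0.0227) and with only the 2 levels compared (0.0132). With all 8 control libraries as a single level, the calls on CALR, SDF2L1 and CRELD2 were lost (limma adjusted p of 0.109, 0.265 and 0.0717), and only the rises of PDIA4 and ATF6 passed. The call on ATF6 and that on PDIA4 were lost when either KLF5 library was left out, with limma adjusted p of 0.0901 to 0.178. That on CRELD2 was also lost without shRFP 1 or shLACZ 1 (0.0626 and 0.0564). Without KLF5 1 only CRELD2 passed, without KLF5 2 only CALR passed, and without plko 1, or without plko 2, 8 of the 40 passed, with HSPA5, DNAJC3 and SHMT2 lower as well, beside 12.0% of all genes.

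Across the lists, 4 of 14 chaperones, 0 of 4 degradation genes, 1 of 3 sensors and 0 of 10 ATF4 targets passed with the KLF5 hairpins. The median log2 difference was -0.25 over the chaperones, with 11 of 14 below 0, 0.21 over the ATF4 targets and 0.05 over all genes tested. Both KLF5 libraries lay below the 6 hairpin controls for 9 of the 40 genes, against 13.4% of all genes tested, and above them for 4, against 14.3%. The 9 were HSPA5, CALR, PDIA3, DNAJC3, SDF2L1, MANF, SYVN1, HERPUD1 and SHMT2. The 4 above were PDIA4, SEL1L, ATF6 and CEBPB. Fibroblast markers summed to 35.5 and 43.2 in KLF5 1 and 2, against 8.38 to 25.8 in the hairpin controls, and the luminal list, nearly all GATA3, to 294 and 249 against 114 to 182, and their part in these differences was not tested.

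Against plko, HERPUD1 alone fell with the KLF5 hairpins, 1 of 40 genes against 3.44% of all genes tested (2.27% higher and 1.16% lower). HERPUD1 (ENSG00000051108) is a membrane protein that organises the degradation complex of the ER. It was at 49.1 and 46.7 in KLF5 1 and 2, against 194 and 84.3 in plko 1 and 2, and its log2 difference was -1.40 (SE 0.39, limma adjusted p = 0.049). The KLF5 libraries lay below both plko libraries, which differed widely from each other. The call was lost with edgeR (adjusted p = 0.0733) and without plko 1 (limma log2 -0.80, adjusted p = 0.612), whereas 7 of the 40 passed without plko 2, beside 8.86% of all genes. It was lost too, at limma adjusted p of 0.0509 to 0.205, when KLF5 1, KLF5 2, FOXA1 1, FOXA1 2, shRFP 1, shRFP 2, shLACZ 2, shLUC 1 or shLUC 2 was left out. CALR and SDF2L1 were at -0.14 and 0.07 in this comparison, with 95% intervals of -0.70 to 0.41 and -0.68 to 0.82. The 2 comparisons of KLF5 share the KLF5 libraries. KLF5 itself fell against the hairpin controls (log2 -1.01, limma adjusted p = 0.00249). Against plko it did not pass (log2 -0.76, limma adjusted p = 0.101).

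In plko against the hairpin controls, CALR and SDF2L1 fell, 2 of 40 genes against 7.5% of all genes tested (1.88% higher and 5.63% lower). CALR was at 157 and 133 in plko 1 and 2, against 211, 261 and 307, with a log2 difference of -0.85 (SE 0.22, limma adjusted p = 0.0205). SDF2L1 was at 106 and 67.5 in plko 1 and 2, against 134, 178 and 241, with a log2 difference of -1.10 (SE 0.30, limma adjusted p = 0.0262), and by edgeR its adjusted p was 0.0524. The luminal list summed to 214 and 218 in plko 1 and 2, against 114 to 182 in the hairpin controls, and its part was not tested. For both genes the 2 plko libraries lay below all hairpin controls, as the KLF5 libraries did. Both plko libraries also lay below the hairpin controls for HYOU1, an ER member of the HSP70 family, and SYVN1, the ubiquitin ligase of ER-associated degradation, 4 of 40 in all against 12.3% of all genes. They lay above them for CANX, DNAJB9, SEL1L and PSPH, against 9.94%. Without plko 1 none of the 40 passed, and without plko 2 the genes that passed were HSPA5, STC2, MANF and HSP90B1, all higher, at log2 differences of 0.83, 1.85, 1.03 and 0.92, beside 10.3% of all genes. plko 1 is then the only library of its construct, and its spread is taken from the others. When RBPJ 1 or RBPJ 2 was left out, 4 passed, with PSAT1 and STC2 higher beside CALR and SDF2L1, where 9.4% and 9.37% of all genes passed.

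**Figure D2:**
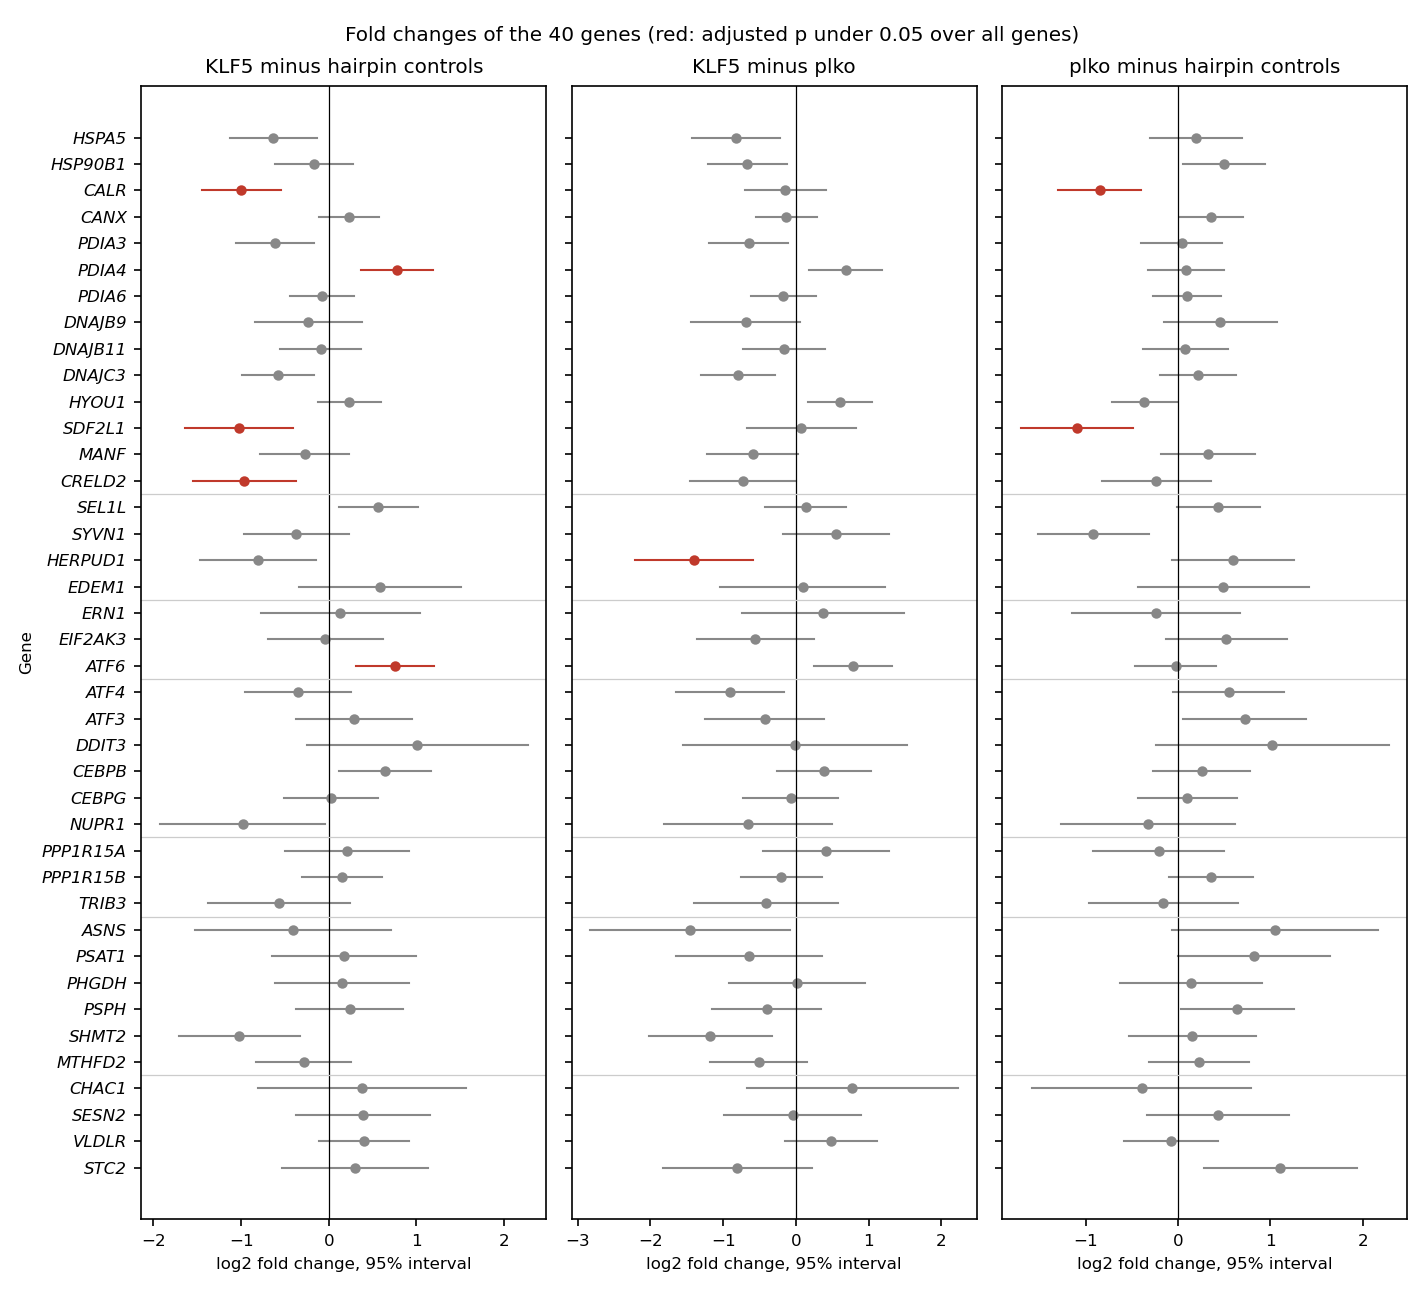
Log2 fold changes of the 40 genes with 95% intervals from limma, for KLF5 minus hairpin controls, KLF5 minus plko and plko minus hairpin controls, with adjusted p below 0.05 in red. CALR and SDF2L1 are red on the left and on the right, and HERPUD1 alone is red in the middle.

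None of the 40 genes passed with the RBPJ, NFIB or FOXA1 hairpins against the hairpin controls, where 0.0277%, 0.00924% and 0.00924% of all genes tested did. The targeted genes did not pass in their own comparisons either, with RBPJ at log2 -1.26, NFIB at -1.72 and FOXA1 at -1.32. Their limma adjusted p were 0.22, 0.164 and 0.178. Neither edgeR nor DESeq2 called any of the 40 in these 3 comparisons. At an unadjusted p below 0.05, limma gave 3 of the 40 genes for RBPJ, 12 for NFIB and 3 for FOXA1, beside 6.01%, 6.53% and 6.96% of all genes. The ATF4 targets had a median log2 difference of -0.19 for RBPJ, 0.53 for NFIB and 0.18 for FOXA1, and the chaperones of -0.01, -0.01 and 0.05. For RBPJ the 2 libraries lay on opposite sides of the hairpin controls, as the values of the ATF4 targets show.

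Asparagine synthetase, ASNS, one of the genes most responsive to ATF4, was at 83.2 and 64.2 in KLF5 1 and 2, at 278 and 25.6 in RBPJ 1 and 2, at 291 and 158 in NFIB 1 and 2 and at 100.1 and 135 in FOXA1 1 and 2. In plko 1 and 2 it was at 368 and 111, and in the hairpin controls at 54.2, 106 and 172. RBPJ 1, NFIB 1 and plko 1 lay above every hairpin control and RBPJ 2 below every one. PSAT1, the aminotransferase of serine synthesis, was at 439 and 321 in KLF5 1 and 2, at 599 and 106 in RBPJ 1 and 2, at 630.1 and 383 in NFIB 1 and 2, at 312 and 482 in FOXA1 1 and 2 and at 878 and 393 in plko 1 and 2, against 233, 350.1 and 431 in the hairpin controls. The same 3 libraries lay above all hairpin controls for PSAT1, with KLF5 1 and FOXA1 2 above them by less, and RBPJ 2 lay below. PHGDH, the first enzyme of serine synthesis, was at 582 and 109 in RBPJ 1 and 2, at 497 and 516 in NFIB 1 and 2 and at 549 and 266 in plko 1 and 2, against 272, 338 and 483. For PHGDH both NFIB libraries were above the controls, and plko 2 joined RBPJ 2 below them.

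MTHFD2, of the mitochondrial folate pathway, was at 373 and 149.8 in RBPJ 1 and 2, at 457 and 258 in NFIB 1 and 2 and at 349 and 223 in plko 1 and 2, against 209.9, 233 and 293 in the hairpin controls. STC2, a secreted glycoprotein induced by ATF4, was at 104 and 26.1 in RBPJ 1 and 2, at 124 and 51.9 in NFIB 1 and 2 and at 218 and 77.4 in plko 1 and 2, against 34.7, 65.0 and 82.4. Both genes again had RBPJ 1, NFIB 1 and plko 1 above all hairpin controls and RBPJ 2 below all, joined for MTHFD2 by KLF5 2 at 168. CHAC1, which degrades glutathione, was at 161 and 33.3 in NFIB 1 and 2 and at 50.2 and 7.11 in RBPJ 1 and 2, but at 26.5 and 18.0 in plko 1 and 2, against 13.2, 30.2 and 56.3 in the hairpin controls. CHAC1 was thus high in NFIB 1 only, within the control range in plko 1, and low in RBPJ 2, where it rested on 15 reads. SESN2, a stress-induced inhibitor of mTORC1 signalling, was at 48.5 and 15.6 in RBPJ 1 and 2, at 60.1 and 30.8 in NFIB 1 and 2 and at 44.1 and 20.4 in plko 1 and 2, against 16.1, 24.1 and 27.9. SESN2 was also above all hairpin controls in KLF5 2 and FOXA1 2, at 38.5 and 34.5. PSPH, the phosphatase of serine synthesis, spanned 17.6 to 46.3 and SHMT2 16.3 to 90.5 over all libraries, both with their high in plko 1. VLDLR, a lipoprotein receptor, spanned 21.8 to 58.3 over all libraries, with its low in RBPJ 2 and its high in KLF5 2.

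**Figure D3:**
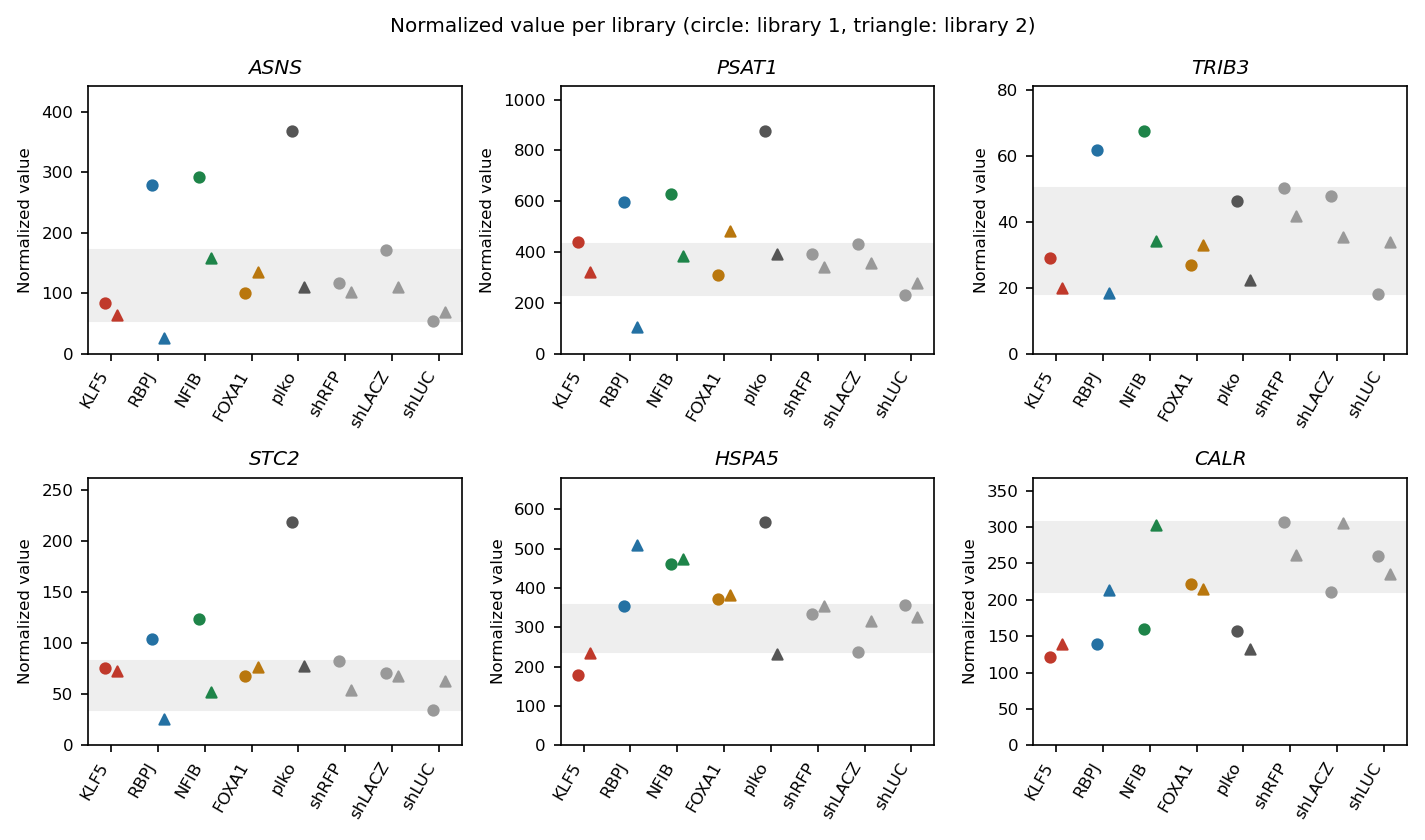
Normalised values of 4 genes of the ATF4 arm (ASNS, PSAT1, TRIB3, STC2) and 2 ER chaperones (HSPA5, CALR) in each library, with circles for library 1, triangles for library 2 and the range of the 6 hairpin controls in grey. ASNS, PSAT1 and STC2 are above the grey band in RBPJ 1, NFIB 1 and plko 1, HSPA5 is highest in plko 1 at 567, and CALR is below the band in both KLF5 and both plko libraries and in RBPJ 1 and NFIB 1.

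The upstream factors showed part of the same pattern. ATF4 itself was at 135 and 154 in KLF5 1 and 2, at 301 and 175 in RBPJ 1 and 2, at 357 and 144 in NFIB 1 and 2, at 161 and 158 in FOXA1 1 and 2 and at 357 and 204 in plko 1 and 2, against 127, 195 and 265 in the hairpin controls. RBPJ 1, NFIB 1 and plko 1 were above all controls, but RBPJ 2 was within their range. ATF3, a stress-induced repressor, was at 48.0 and 17.5 in RBPJ 1 and 2, at 60.1 and 34.2 in NFIB 1 and 2 and at 57.4 and 32.8 in plko 1 and 2, against 20.2, 26.0 and 33.3. DDIT3 (CHOP), a factor that promotes death in lasting stress, was at 16.7 and 6.64 in RBPJ 1 and 2, at 17.1 and 5.06 in NFIB 1 and 2 and at 15.4 and 3.72 in plko 1 and 2, against 0.68, 3.01 and 9.45 in the hairpin controls. DDIT3 rested on 7 reads in plko 1 and on 1 read in a hairpin control, so its folds are uncertain. NUPR1, a small stress-induced nuclear protein, was at 162 and 34.6 in RBPJ 1 and 2, at 234 and 117 in NFIB 1 and 2 and at 106 and 34.1 in plko 1 and 2, against 34.0, 77.0 and 119.7. Only RBPJ 1 and NFIB 1 exceeded its control range. CEBPB, a partner of ATF4, was at 418 and 299 in KLF5 1 and 2, at 404 and 147 in RBPJ 1 and 2 and at 356 and 256 in NFIB 1 and 2, against 182, 223 and 287.

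The feedback regulators did not move as a block. PPP1R15A (GADD34), which directs dephosphorylation of eIF2, was at 34.1 and 70.7 in RBPJ 1 and 2 and at 76.5 and 22.8 in NFIB 1 and 2, against 17.1, 21.6 and 30.6 in the hairpin controls. It was the only 1 of the 40 with both RBPJ libraries above all controls, where 4.19% of all genes were, and its log2 difference of 1.10 did not pass (SE 0.34, limma adjusted p = 0.406). In RBPJ it was highest in library 2, the library in which ASNS, PSAT1 and CHAC1 were lowest. In plko 1 and 2 PPP1R15A was at 19.9 and 18.6, inside the control range. TRIB3, a pseudokinase that restrains ATF4, was at 61.7 and 18.5 in RBPJ 1 and 2, at 67.7 and 34.2 in NFIB 1 and 2 and at 46.3 and 22.3 in plko 1 and 2, against 18.3, 38.6 and 50.1. PPP1R15B, the constitutive counterpart of PPP1R15A, spanned only 39.4 to 80.0 over all 16 libraries.

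**Figure D4:**
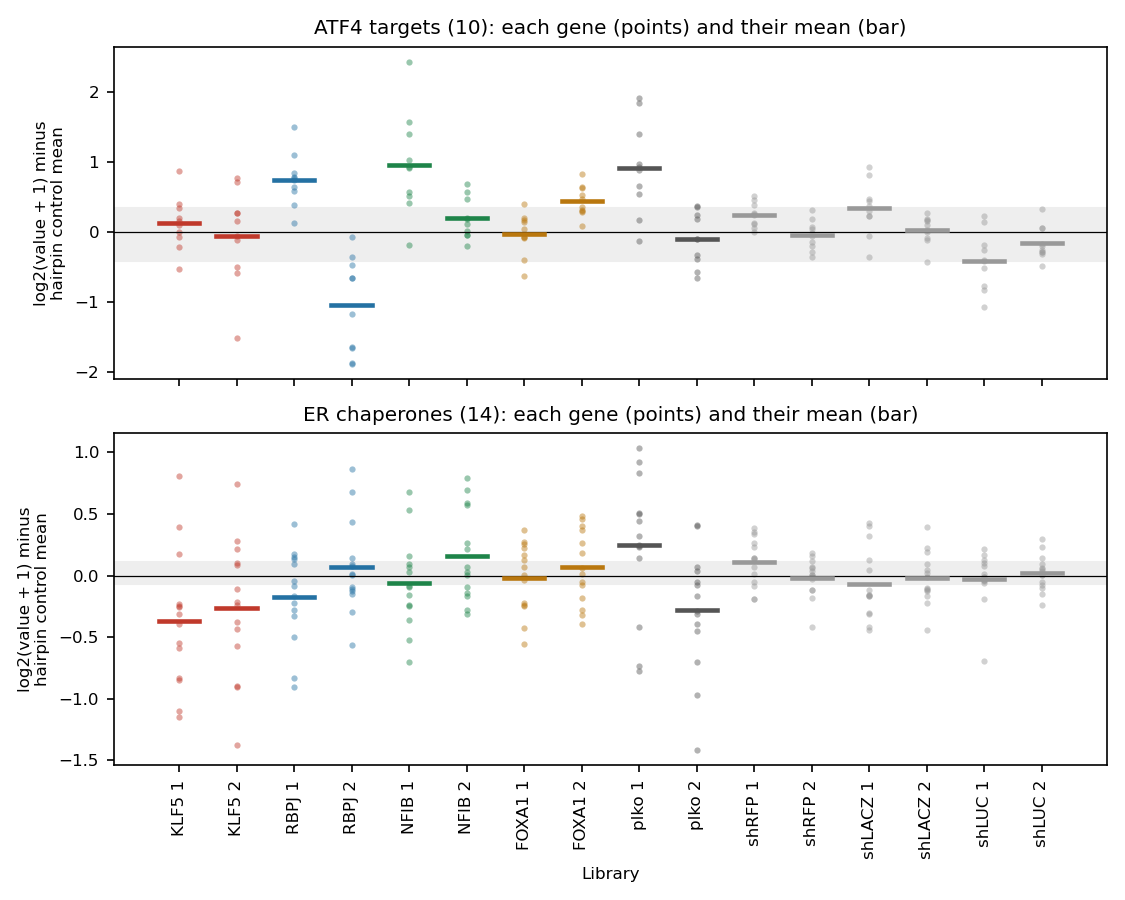
Each of the 10 ATF4 targets (top) and 14 ER chaperones (bottom) as points in each library, in log2(value + 1) minus the hairpin control mean, with the mean of the list as a bar and the range of that mean in the hairpin controls in grey. The means of the ATF4 targets run from -1.05 in RBPJ 2 to 0.96 in NFIB 1, and those of the chaperones from -0.37 in KLF5 1 to 0.25 in plko 1.

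Averaged over the 10 ATF4 targets, a library's log2 distance from the hairpin control mean was 0.13 and -0.06 in KLF5 1 and 2, 0.75 and -1.05 in RBPJ 1 and 2, 0.96 and 0.20 in NFIB 1 and 2, -0.03 and 0.45 in FOXA1 1 and 2 and 0.92 and -0.10 in plko 1 and 2. The hairpin controls spanned -0.41 to 0.34. RBPJ 1, NFIB 1, FOXA1 2 and plko 1 lay above that span and RBPJ 2 below it. Over the 14 chaperones the same distance was -0.37 and -0.26 in KLF5 1 and 2, -0.17 and 0.07 in RBPJ 1 and 2, -0.06 and 0.16 in NFIB 1 and 2, -0.02 and 0.07 in FOXA1 1 and 2 and 0.25 and -0.28 in plko 1 and 2, and -0.07 to 0.11 in the hairpin controls. Only plko 1 was above the control span on both lists, and RBPJ 1, with ATF4 targets above it, had chaperones below it. KLF5 1, KLF5 2 and plko 2 also had chaperones below the span, and NFIB 2 had them above it. The range over the 16 libraries was 2.01 for the ATF4 targets and 0.62 for the chaperones, against 0.13 for all genes tested, a mean of far more genes.

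Gene by gene, the median SD of log2 values over the 16 libraries was 0.58 for the ATF4 targets, 0.33 for the chaperones and 0.43 for all genes tested. Over the 6 hairpin controls alone these medians were 0.34, 0.21 and 0.33. NFIB 1 and plko 1 each exceeded all hairpin controls for 9 of 10 ATF4 targets, beside 21.2% and 27.5% of all genes tested in those libraries, and RBPJ 1 for 7, beside 16.6%. RBPJ 2 was below all hairpin controls for 8 of 10, beside 17.9%. KLF5 1 and KLF5 2 were each below all hairpin controls for 7 of 14 chaperones, beside 22.0% and 22.9%. plko 1 was the highest of the 16 libraries for 13 of the 40 genes and NFIB 1 for 12, and RBPJ 2 was the lowest for 13. Over all genes tested these shares were 16.3% for plko 1, 8.78% for NFIB 1 and 8.7% for RBPJ 2.

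The 2 plko libraries stood apart from each other on both arms. Over the chaperones their distances of 0.25 and -0.28 lay on either side of the hairpin control span of -0.07 to 0.11. Over the ATF4 targets only plko 1, at 0.92, left the span of -0.41 to 0.34, with plko 2 at -0.10. plko 1 was higher than plko 2 for 36 of the 40 genes and past 2-fold for 13, with none past 2-fold lower. Of all genes, 17.3% were past 2-fold, 7.41% higher and 9.88% lower. The ratio of plko 1 to plko 2 was 3.32 for ASNS (95% interval from the read counts 2.67 to 4.13), 2.82 for STC2, 2.81 for SHMT2, 2.72 for MANF and 2.43 for HSPA5. Among the chaperones HSPA5 was at 567 and 233 in plko 1 and 2, HSP90B1 (GRP94) at 496 and 274 and MANF, a secreted ER stress protein, at 199 and 73.1. In the hairpin controls these genes reached at most 357, 329.8 and 110.3, so plko 1 lay above them for each. CALR, SDF2L1 and HYOU1 did not share this, at 157, 106 and 99.3 in plko 1, below every hairpin control. plko 1 was the shallowest library, with 167 reads of ASNS and 257 of HSPA5, and its basal epithelial markers summed to 2879, against 4365 in plko 2. The part of depth and of these markers in the differences was not tested. Intervals cover counting error only.

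Of the 8 constructs, RBPJ had the largest difference in ATF4 targets between its libraries. For library 1 over library 2 the median log2 difference was 1.76 for the ATF4 targets and -0.17 for the chaperones, beside 0.01 for all genes tested. All 10 ATF4 targets were higher in RBPJ 1, and 7 of them past 2-fold, where 8.45% of all genes were. ASNS was 10.9 times as high in RBPJ 1 as in RBPJ 2 (95% interval 8.28 to 14.6, from 1120 and 54 reads), CHAC1 7.06 times, PSAT1 5.66 times and PHGDH 5.34 times. SDF2L1 and PPP1R15A went the other way, at ratios of 0.31 and 0.48. RBPJ 2, in which RBPJ itself was at 17.7% of the control mean, had the low ATF4 targets, and RBPJ 1, at 89.5%, the high ones, and whether the depth of the target's reduction bears on this was not tested. Basal epithelial markers summed to 3581 in RBPJ 1 and 8369 in RBPJ 2, and their part was not tested either. When RBPJ 1 was left out, 4 of the 40 genes passed against the hairpin controls, beside 1.9% of all genes, 205 where 3 had passed with both libraries. The 4 were ASNS, PHGDH and PSAT1 at log2 -1.88, -1.66 and -1.64 and PPP1R15A at 1.62, with limma adjusted p of 0.0325, 0.00243, 0.00987 and 0.0479, and RBPJ 2 is then alone, its spread again taken from the other constructs. When RBPJ 2 was left out none passed.

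In NFIB the difference of library 1 over library 2 had a median of 0.77 over the ATF4 targets and -0.05 over the chaperones, and 6 of the 40 genes were past 2-fold, all higher in NFIB 1, beside 6.13% of all genes in that direction. They were CHAC1 (ratio 4.84), DDIT3 (3.37), PPP1R15A (3.36), ATF4 (2.48), STC2 (2.38) and HERPUD1 (2.36). CALR, PDIA4 and PDIA3 were lower in NFIB 1 than in NFIB 2, at ratios of 0.53, 0.54 and 0.55. CALR was at 160 and 303 in NFIB 1 and 2, against 211 to 307 in the hairpin controls, so NFIB 1 lay below them. PDIA4 was at 135 and 249, against 123 to 173, and PDIA3 at 282 and 510, against 266 to 415. For these 2 genes NFIB 1 lay inside the control range and NFIB 2 above it. Both NFIB libraries lay above all hairpin controls for 7 of the 40 genes, beside 4.97% of all genes tested, namely HSPA5, DNAJB9, ATF6, ATF3, PPP1R15B, PHGDH and SESN2. Fibroblast markers summed to 38.3 and 40.1 in NFIB 1 and 2, against 8.38 to 25.8 in the hairpin controls, and basal epithelial markers to 9183 and 3357, and their part was not tested. HSPA5 was at 461 and 474 in NFIB 1 and 2 and at 509 in RBPJ 2, while no hairpin control exceeded 357. Without NFIB 1 the ATF4 target median against the hairpin controls was 0.15, and without NFIB 2 it was 0.93.

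The other constructs showed smaller differences between their libraries. The ATF4 targets had a median of 0.22 in KLF5 and -0.40 in FOXA1, and of 0.20, 0.31 and -0.24 in shRFP, shLACZ and shLUC. No hairpin control construct had an ATF4 target past 2-fold, beside 9.12%, 13.1% and 6.7% of all genes tested in shRFP, shLACZ and shLUC. Both FOXA1 libraries lay above all hairpin controls for HSPA5, CANX, PDIA4 and VLDLR, 4 of 40 beside 4.58% of all genes tested, and below for DNAJC3 and SYVN1, beside 5.83%. DNAJC3, an ER co-chaperone that also inhibits eIF2 kinases, was below all hairpin controls in both libraries of KLF5, NFIB and FOXA1, at 54.0 and 54.8, 63.6 and 65.8, and 55.3 and 72.1, against 72.8, 84.2 and 86.3, and passed the test in none. These comparisons share the hairpin controls.

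**Figure D5:**
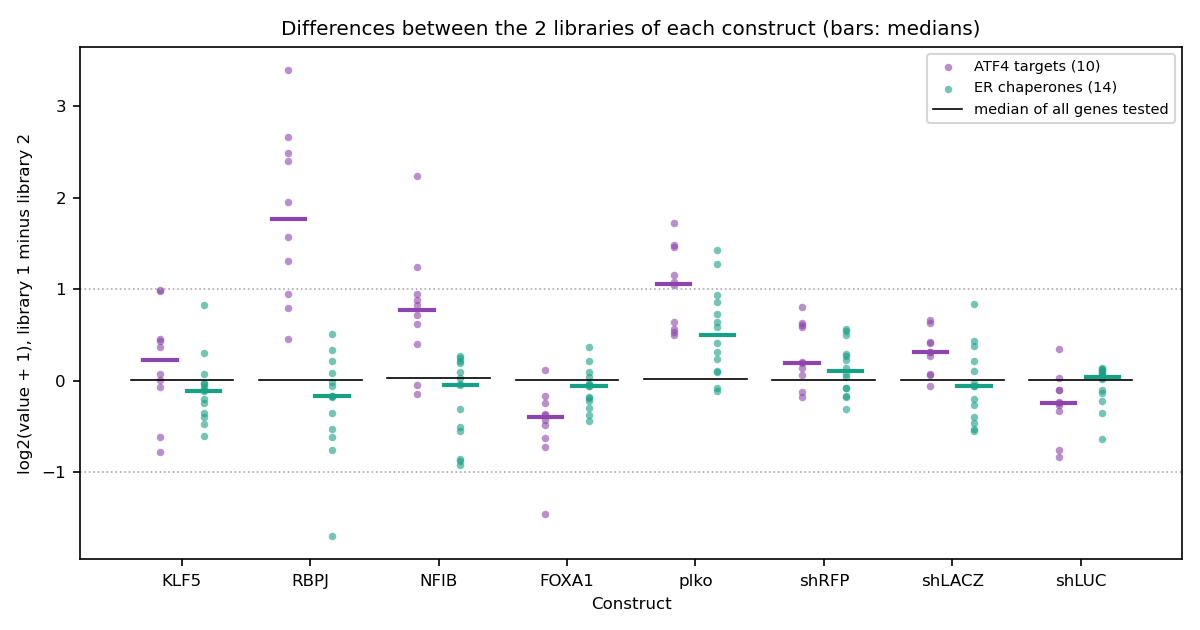
Difference in log2(value + 1) between library 1 and library 2 of each construct, for the 10 ATF4 targets (purple) and the 14 ER chaperones (green), with list medians as coloured bars, the median of all genes as a black line and 2-fold as dotted lines. RBPJ, NFIB and plko have the ATF4 target medians farthest from 0, at 1.76, 0.77 and 1.06, and the chaperone median leaves the neighbourhood of 0 only in plko, at 0.50.

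Several of the remaining genes stayed within a narrow range or rested on few reads. CANX, the membrane-bound partner of CALR, spanned 346 to 545 and PDIA6, a disulfide isomerase, 388 to 558 over the 16 libraries, without passing in any comparison. DNAJB9 and DNAJB11, ER co-chaperones of HSPA5, spanned 9.86 to 22.6 and 101 to 183, and CEBPG, a partner of ATF4, 62.6 to 126. SEL1L, the scaffold of the SYVN1 ligase, spanned 30.3 to 57.4. ERN1 had as few as 2 reads in at least 1 library, and EDEM1, a lectin of glycoprotein degradation, as few as 5, too few for a fold to be read. EIF2AK3 was at 50.7 and 22.9 in plko 1 and 2, against 12.9, 25.3 and 33.5 in the hairpin controls. Over the 6 comparisons, 6 of the 40 genes passed in at least 1 and 34 in none, with 8 calls in 240 tests. Named pseudogene copies exist for 7 of the 40, namely HSPA5, PDIA3, ATF4, ASNS, PSAT1, PSPH and MTHFD2, and how the counting shared reads between copies is not given in the sources.

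Beyond the 40, 121 of 125 further genes of the same pathways were analysed and 120 tested. With the KLF5 hairpins against the hairpin controls 5 rose and 18 fell, beside 4.42% and 6.61% of all genes tested. By list, 0 rose and 4 fell of 22 folding and quality control genes, 1 and 3 of 20 degradation genes, 1 and 4 of 21 genes of translocation and N-glycosylation, 2 and 1 of 9 signalling genes, 0 and 1 of 13 eIF2 genes, 1 and 2 of 23 other ATF4 targets and 0 and 3 of 12 aminoacyl-tRNA synthetases. The lower genes of smallest p were ERP29, an ER folding protein (log2 -1.33), WARS1, tryptophanyl-tRNA synthetase (-1.16), SEC61G, a translocon subunit (-1.16), FKBP2, an ER prolyl isomerase (-1.26), and EIF2B2, a subunit of the eIF2 exchange factor (-1.57). The higher ones were RPN1, of the oligosaccharyltransferase (0.76), MBTPS1, the site-1 protease that cleaves ATF6 (0.90), TMBIM6 (0.63), ALDH18A1, of proline synthesis (0.87), and DERL3, of ER degradation (1.72), with limma adjusted p of 0.000507 to 0.0221 over these 10. Each of the 5 higher calls was lost in limma without 1 KLF5 library or the other. RPN1 was lost without KLF5 1 (adjusted p = 0.0783) and MBTPS1 without KLF5 2 (0.088), and TMBIM6, ALDH18A1 and DERL3 without either (0.0512 to 0.243). ERP29 and SEC61G missed the threshold without KLF5 1 (limma adjusted p of 0.0549 and 0.0525), and FKBP2, ALDH18A1 and DERL3 with the 8 controls as a single level (0.0751, 0.0789 and 0.0576).

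Against plko, WFS1, an ER membrane glycoprotein, rose with the KLF5 hairpins (log2 1.37), and the tRNA synthetases MARS1 and EPRS1 fell (-0.98 and -0.995). These calls were lost with edgeR (adjusted p of 0.0807, 0.0676 and 0.0658 for WFS1, MARS1 and EPRS1). They were lost too with only the 2 levels compared (limma adjusted p of 0.124, 0.0912 and 0.0927) and without either KLF5 library. The same held without plko 1, at log2 differences of 1.38, -0.71 and -0.55. WFS1 was also lost with TMM scaling, without a filter on low values and with most other libraries left out. EPRS1 was lost without either FOXA1 library and when any of the 6 hairpin controls was left out (limma adjusted p of 0.0549 to 0.062). MARS1 was lost without shRFP 1, shRFP 2 or shLUC 2 (limma adjusted p of 0.0521 to 0.0531). In plko against the hairpin controls 2 of the 120 rose, SEC62 and EDEM3 (0.67 and 0.85), and 9 fell, among them VCP, the ATPase that extracts proteins from the ER (-0.86), SEC61A1 (-0.97), FKBP2 (-1.05) and SLC1A5 (-0.81), beside 1.88% of all genes higher and 5.63% lower. SEC62, EDEM3, VCP, SEC61A1 and FKBP2 were lost without plko 1 (limma adjusted p of 0.0571 to 0.49) and SLC1A5 without plko 2 (0.181). EDEM3 was also lost with edgeR (adjusted p = 0.086), DESeq2 (0.0508) and most other libraries left out. None of the 120 passed with the RBPJ, NFIB or FOXA1 hairpins by limma, and 4, 13 and 8 of them had an unadjusted p below 0.05, beside the 6.01%, 6.53% and 6.96% of all genes given above.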

How the data were processed

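RNA was measured as 3′ cDNA in 16 libraries of infected HCC70 cells, barcoded in batches of 12 and amplified by a CEL-Seq-like procedure, per the labels' protocols. Some samples were run again. The labels do not say which, or which samples were barcoded together, so no within-batch value could be had. The authors deposited 1 table of normalized signal, named DESeq2-normalized, and the submitters' processing notes name build GRCh37. For the aligner, the counter, the annotation and any molecular identifiers, no source used here gives a name. Reads were recovered from the deposited values, 100.0% of which came within 0.05 of a whole number of reads. The table holds 2 further columns that match no sample described here, not used.

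Symbols were matched for 11253 of 11282 identifiers. Values were tested on the scale of log2(value + 1) with limma 3.58.1 (trend, 2-sided) in a single fit of all 16 libraries with 6 levels, the 4 targets, plko and the hairpin controls. A gene was tested if 2 or more libraries reached a value of 5 (10826 genes, with 456 removed), and p-values were adjusted by Benjamini-Hochberg over all of them. edgeR 4.0.16 (quasi-likelihood) and DESeq2 1.42.0 on the recovered reads, other pseudocounts (0.5 and 5), other filters, TMM scaling, pooled controls, a fit of only the levels compared, a replicate block and leaving out each library were alternatives. The fit was also run on simulated counts that gave all libraries the same spread. The real pairs of libraries differ unevenly, so that run cannot show how reliable the calls are. Ratios between libraries have exact binomial 95% intervals of the recovered reads, which cover counting error only.

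The 40 genes and all lists were chosen with earlier results of these data known, so lists have counts and medians and no p. Any of the 40 could be named. Of the further pathway genes, at most 5 per comparison and direction were named, by smallest p, and 1 that this rule picks is not reported here. Pairs of libraries of a construct differed beyond sampling noise (chi-square per degree of freedom 2.07 to 19.7), and all were kept.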

Additional observations from a re-analysis of the deposited data

Results flagged for a closer look

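Among the 6 hairpin controls, a single library stood apart from the other 5 for 2 of 42 measures checked (the 40 genes and the 2 list averages), and chance alone flags about 5% of groups. HSPA5 was at 238 in shLACZ 1, against 315 to 357 in the other 5 hairpin controls, so the low end of the HSPA5 control range rests on that library. SYVN1 was at 29.7 in shRFP 1, against 18.0 to 21.8 in the other 5, so its high end rests on that library.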

How the results depend on the processing

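Of the 40 genes, 5 passed for KLF5 against the hairpin controls, 2 with all 8 control libraries as a single level (PDIA4 and ATF6, both higher, with every fall lost), 12 with only the 2 levels compared in the fit, and 1 to 8 when a library was left out. For KLF5 against plko the count was 1, with 0 at a pseudocount of 0.5 and with edgeR, 2 with DESeq2, and 0 to 7 with a library left out. For plko against the hairpin controls it was 2, with 1 by edgeR, 4 with only the 2 levels compared, and 0 to 4 with a library left out. For RBPJ it was 0, and 0 to 4 with a library left out. No alternative run called any of the 40 for NFIB or FOXA1.

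The chaperone median for KLF5 against the hairpin controls was -0.25, -0.35 with the controls pooled and -0.35 to -0.23 with a library left out. With a library left out it spanned -0.63 to -0.10 for KLF5 against plko, -0.12 to 0.011 for RBPJ, -0.09 to 0.05 for NFIB, 0.01 to 0.07 for FOXA1 and -0.23 to 0.29 for plko. The ATF4 target median spanned 0.05 to 0.27 for KLF5, -0.76 to -0.064 for KLF5 against plko, -0.92 to 0.76 for RBPJ, 0.15 to 0.93 for NFIB, -0.015 to 0.41 for FOXA1 and -0.10 to 0.91 for plko, and was 0.10 by edgeR for RBPJ against -0.19 by limma. For RBPJ, FOXA1 and plko its sign thus depended on 1 library. CHAC1 for RBPJ, at -0.56, spanned -1.89 without RBPJ 1 to 0.77 without RBPJ 2, and EDEM1 for FOXA1, at 0.46, spanned -0.20 without FOXA1 1 to 1.13 without FOXA1 2, with neither passing. With CPM, an alternative added after seeing the data, the chaperone distance was -0.082 for RBPJ 1 and -0.21 for plko 2. The causes of these shifts were not tested.

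Over all genes, 1194 passed for KLF5 against the hairpin controls, 581 with the controls pooled and 1680 with only the 2 levels compared. Those 1680 were 723 higher and 957 lower, beside 12 of the 40 genes, 3 higher and 9 lower. For KLF5 against plko 372 passed, with 146 by edgeR, 306 by DESeq2 and 121 with only the 2 levels. For plko 812 passed, with 382 by edgeR, 496 by DESeq2 and 1019 with only the 2 levels. For RBPJ the count was 3, with 9 at a pseudocount of 5, 1 by edgeR, 29 by DESeq2 and 6 with only the 2 levels. For NFIB it was 1, with 0 by edgeR, 4 by DESeq2 and 5 with only the 2 levels, and for FOXA1 1, with 2 at a pseudocount of 5, 2 by DESeq2 and 13 with only the 2 levels. With a library left out these counts spanned 365 (without KLF5 1) to 1320 for KLF5, 0 (without plko 1) to 958 for KLF5 against plko, 0 to 205 for RBPJ, 0 to 4 for NFIB, 0 to 30 for FOXA1 and 131 (without plko 1) to 1115 for plko. Pooling the controls gives no value for comparisons with plko. Replicate numbers only name libraries here. Over 28 pairs of constructs, same-numbered libraries deviated together at a correlation of -0.19 to 0.22 (median 0.03). With a replicate block, 6 of the 40 genes passed for KLF5 against the hairpin controls. Depth limits DDIT3, ERN1 and EDEM1, and with 2 libraries per construct a hairpin's own effect and a library's own deviation cannot be told apart.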
